A study of Mus musculus with 6 samples.

Results

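The 6 genes followed here carry glycerol and glycerol-3-phosphate through fat cells and were measured in brown fat of cold-exposed mice. They are Gk, which encodes glycerol kinase, the aquaglyceroporin gene Aqp7, the phosphoenolpyruvate carboxykinase gene Pck1, and the glycerol-3-phosphate dehydrogenase genes Gpd1, Gpd1l and Gpd2. Members were all transcripts that the GENCODE M21 annotation assigns to these 6 genes, of 21730 genes with a read in the series. The annotation lists 30 such transcripts. Of these, 26 had a read, 21 had at least 10 reads over all mice, and 17 passed the filter on low counts.

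The tissue was interscapular brown fat, a pad between the shoulder blades that burns fuel for heat, from male wild-type C57BL/6N mice aged 20 weeks. The 3 cold mice (numbers 4, 11 and 15) had been kept alone at 4 °C for 24 h. The 3 control mice (numbers 2, 9 and 14, labelled ctrl) came from an animal room at 22 to 24 °C, and whether they too were housed alone is not given in the sources used here. Poly(A) RNA, 100 ng per library, was sequenced on Oxford Nanopore instruments as direct cDNA, a method that reads long molecules without PCR, and each mouse's library was run on 2 flow cells whose counts were summed.

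Fat cells store fatty acids as triglyceride, whose backbone is glycerol-3-phosphate. It is made in 3 ways: by glycerol kinase from free glycerol, by glycerol-3-phosphate dehydrogenase from dihydroxyacetone phosphate of glycolysis, or from oxaloacetate by glyceroneogenesis, in which the cytosolic carboxykinase Pck1 is the controlling enzyme. White fat cells are known to have little glycerol kinase and to let the glycerol of lipolysis leave through aquaporin 7, whereas brown fat cells can phosphorylate it again. Gpd1 and Gpd2 also form the glycerophosphate shuttle, in which the cytosolic enzyme Gpd1 makes glycerol-3-phosphate with electrons of NADH and the mitochondrial enzyme Gpd2 passes these electrons to ubiquinone. Brown fat is known for a high activity of that shuttle.

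Each library held 1657985 to 2238056 reads matched to an annotated transcript, and 15661 to 16418 genes had a read. A count of 3 reads, the upper limit that a count of 0 allows, corresponds to 1.34 to 1.81 CPM. Such limits cover counting error only. CPM are read counts of a gene scaled to a common library size over the tested genes. The p-values of the fit rest on the spread among these 6 mice, moderated by the spread of the other tested genes, and do not measure it alone. Brown adipocyte markers were abundant in both groups, with Ucp1 at 10665.5 ± 840.1 CPM (SD, n = 3) in ctrl and 13809.6 ± 125.2 in cold mice. Of 12 brown adipocyte markers tested, 5 rose (Ucp1, Ppargc1a, Dio2, Elovl3 and Fabp4) and 2 fell (Cox8b and Adipoq), while Cidea, Prdm16, Adrb3, Cox7a1 and Plin1 did not pass the test. Skeletal muscle transcripts varied most between libraries. Their 12 markers summed to 94.9, 413.9 and 663.1 CPM in ctrl mice 2, 9 and 14 and to 294.7, 1454 and 3643 CPM in cold mice 4, 11 and 15, and none of the 12 passed the test.

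Of the 6 genes, 4 passed the test at an adjusted p under 0.05, against 20.0% of all 8684 tested genes. Gk and Aqp7 rose (10% of all tested genes rose) and Pck1 and Gpd2 fell (10% of all fell), while Gpd1 and Gpd1l did not pass. In these 4 genes the 3 cold mice lay wholly above or wholly below the 3 ctrl mice, as was so for 35.1% of all tested genes. In whole tissue, fewer cells of a type and less RNA per cell cannot be told apart.

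**Figure D1:**
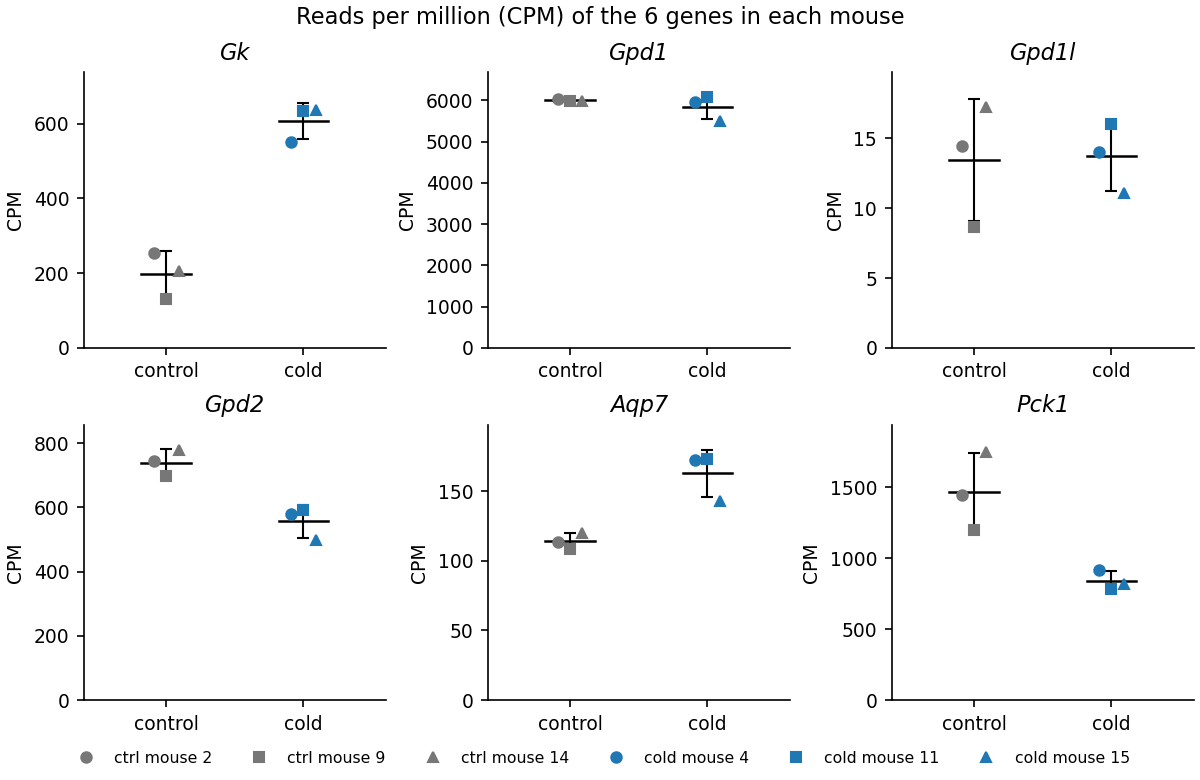
Level of each of the 6 genes in CPM (vertical axes, each from 0) in the 3 control and 3 cold mice; points are mice, horizontal bars group means and error bars the SD. Gk and Aqp7 were higher in all cold mice, Gpd2 and Pck1 lower, and the groups of Gpd1 and Gpd1l overlapped.

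Aqp7 encodes the channel through which glycerol crosses the fat cell membrane (GRCm38, chromosome 4, 41033074 to 41048139, minus strand). Its level was 113.4, 108.2 and 120.05 CPM in ctrl mice 2, 9 and 14. Cold mice 4, 11 and 15 had 172.0, 172.8 and 143.2 CPM. All cold mice lay above all ctrl mice, with cold mouse 15 nearest to them. The rise was 1.43-fold, or 0.52 ± 0.10 on the log2 scale (SE), with an adjusted p of 0.000352. Both main transcripts encode the same 909 bases of coding sequence and differ in their first exons. Aqp7-201, with 8 exons, rose from 80.8 ± 3.68 to 116.0 ± 16.6 CPM (adjusted p = 0.00109; 0.0573 on flow cell 2 alone). Aqp7-202, with 6 exons, rose from 34.1 ± 3.05 to 47.7 ± 7.90 CPM (adjusted p = 0.0231). The latter call was lost without cold mouse 4 (adjusted p = 0.220), ctrl mouse 9 (0.123) or ctrl mouse 14 (0.0504). Their proportions stayed close. Aqp7-201 took 68.4%, 72.4% and 70.2% of the reads of the pair in ctrl mice, and 67.0%, 76.0% and 69.2% in cold mice. The mean difference was 0.376 percentage points (exact two-sided permutation p = 0.9). These shares rest on first exons, at the start of the transcripts. How a read that ends before them was assigned is not given in the sources used here. The short non-coding forms Aqp7-203 and Aqp7-204 had 14 and 17 reads in all. Other aquaglyceroporins were near or below the limit of detection. Aqp9 had no read in any library, Aqp3 had 1 read, and Aqp11 had 30.

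Gk, which phosphorylates glycerol to glycerol-3-phosphate (chromosome X, 85701937 to 85776819, minus strand), showed the largest change of the 6 genes. In ctrl mice 2, 9 and 14 it stood at 252.8, 130.1 and 207.1 CPM. In cold mice 4, 11 and 15 it stood at 550.3, 633.7 and 637.6 CPM. The lowest cold mouse thus lay well above the highest ctrl mouse, and the ctrl mice differed more among themselves than the cold mice did. Gk rose 3.09-fold, by 1.63 ± 0.29 on the log2 scale (SE), with an adjusted p of 0.0202. Leaving out single mice kept the log2 fold change between 1.40 and 1.85 but not always the call: without ctrl mouse 14 or without cold mouse 4, 11 or 15 the adjusted p was 0.0818, 0.0506, 0.0777 or 0.0706. With the muscle markers as a covariate it was 0.0811, at a log2 fold change of 1.67. The call was kept without ctrl mouse 2 (adjusted p = 0.00374) or ctrl mouse 9 (3.60e-14). It was also kept with DESeq2 (5.03e-07) and in the edgeR fit without robust estimation (6.29e-06). Each flow cell alone gave a call, with log2 fold changes of 1.61 and 1.63 and adjusted p-values of 0.0182 and 0.00643.

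Nearly all Gk reads lay on 4 coding transcripts, Gk-201, Gk-202, Gk-206 and Gk-208. They differ by 3 short coding exons that are skipped or kept without shifting the reading frame. Gk-201 has none of them, and its coding sequence of 1572 bases is the shortest. Gk-202 has the exons of 18 and 87 bases and a coding sequence of 1677 bases, Gk-206 has the exon of 84 bases (1656 coding bases), and Gk-208 has the exon of 87 bases (1659 coding bases). The sequences below, read from the GENCODE M21 transcripts of build GRCm38, are what sets these forms of the enzyme apart. Capitals mark the exon, and the 15 lower-case bases on each side are its neighbours in the spliced transcript.
Gk exon of 18 bases, chrX:85739222-85739239, minus strand, exon 9 of 21 in Gk-202: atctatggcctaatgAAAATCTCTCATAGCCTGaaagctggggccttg
Gk exon of 84 bases, chrX:85749612-85749695, minus strand, exon 5 of 20 in Gk-206: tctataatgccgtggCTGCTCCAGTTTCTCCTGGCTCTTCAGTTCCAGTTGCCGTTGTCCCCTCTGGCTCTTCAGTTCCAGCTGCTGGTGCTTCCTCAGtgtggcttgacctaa
Gk exon of 87 bases, chrX:85706238-85706324, minus strand, exon 20 of 21 in Gk-202: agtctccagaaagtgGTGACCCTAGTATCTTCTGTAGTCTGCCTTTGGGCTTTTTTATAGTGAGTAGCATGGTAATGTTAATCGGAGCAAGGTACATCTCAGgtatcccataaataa

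The exon of 84 bases holds a stretch of 18 bases, CTGGCTCTTCAGTTCCAG, that occurs in it more than once. The exon of 18 bases adds 6 codons, that of 84 bases 28 and that of 87 bases 29. In the frame of its transcript none of the 3 contains a stop codon. The exon of 87 bases lies so near the end of the coding sequence that the stop codon begins at base 9 after it.

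All 4 coding transcripts rose, against 8.68% of the 11699 tested transcripts. Gk-201 went from 42.0 ± 11.0 to 114.6 ± 10.1 CPM (log2 fold change 1.45, adjusted p = 2.51e-09). Gk-202 went from 61.4 ± 24.2 to 189.4 ± 15.6 CPM (1.64, adjusted p = 0.0155). It was the form whose ctrl mice lay furthest apart, at 87.7, 40.1 and 56.6 CPM in ctrl mice 2, 9 and 14. Gk-206 went from 59.5 ± 19.8 to 195.6 ± 19.4 CPM (1.72, adjusted p = 0.00355). Gk-208 went from 38.1 ± 10.5 to 119.8 ± 16 CPM (1.65, adjusted p = 1.10e-08). In each of the 4, all cold mice lay above all ctrl mice, and 32.2% of all tested transcripts had groups that did not overlap in either direction. Gk-202 alone lost its call when a mouse was left out, namely ctrl mouse 14 (adjusted p = 0.0779), cold mouse 11 (0.0752) or cold mouse 15 (0.0690). The remaining annotated forms are non-coding: Gk-205 had 12 reads, and Gk-203, Gk-204 and Gk-207 had 5, 6 and 5.

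**Figure D2:**
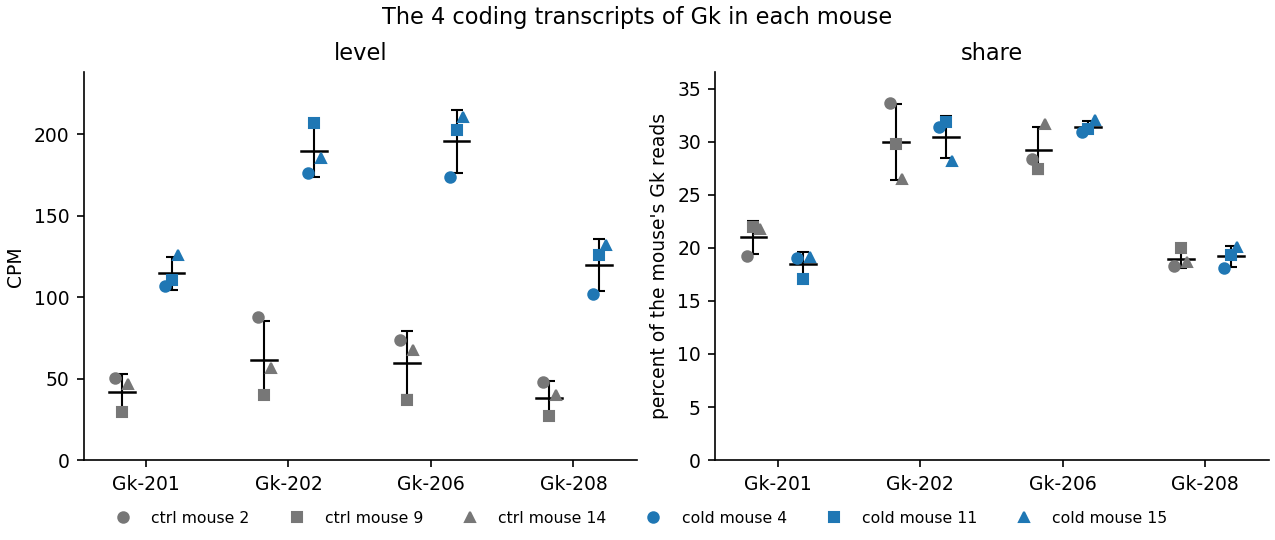
The 4 coding transcripts of Gk in each mouse, as level in CPM (left) and as percent of that mouse's Gk reads (right); points are mice, bars group means, error bars the SD. Levels of all 4 were higher in the 3 cold mice, while their shares of the gene's reads lay close together in both groups.

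The proportions of the exons were compared as shares of the reads on these 4 transcripts, which numbered 253 to 439 in a ctrl mouse and 1090 to 1259 in a cold mouse. The exon of 18 bases was in 30.2 ± 3.46% of reads in ctrl and 30.6 ± 1.99% in cold mice. The exon of 84 bases was in 29.4 ± 2.37% and 31.6 ± 0.575%, and the exon of 87 bases in 49.4 ± 3.27% and 49.9 ± 1.48%. These 3 shares overlapped between the groups. The form without any of them, Gk-201, took 19.3%, 22.1% and 22.1% in ctrl mice 2, 9 and 14 and 19.2%, 17.2% and 19.3% in cold mice 4, 11 and 15. These groups were separated by a small gap, and the mean was 2.65 percentage points lower in cold (exact two-sided permutation p = 0.1, the smallest that 3 against 3 can give; Benjamini-Hochberg p = 0.4 over the 8 shares compared here). On flow cell 1 alone the Gk-201 shares were separated, and on flow cell 2 alone they overlapped (exact two-sided permutation p = 0.2). Gk was not called by the test of transcript usage across all genes (Simes adjusted p = 1.00), which called 0.195% of 2568 genes. On flow cell 1 the exon of 84 bases was 4.54 percentage points more frequent in cold mice, whereas on flow cell 2 it was 1.40 points less frequent, so its share had no stable direction.

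These exons lie 2460 to 3687 bases from the 3′ end of their transcripts, and how a read that ends before them was assigned is not given in the sources used here. Gk2, a testis form of the kinase gene, shares a stretch of 305 aligned bases with Gk at 88.85% identity and had no read in any library. Gykl1 had no read and Gk5 had 37 in all. Pgp, whose enzyme removes the phosphate from glycerol-3-phosphate, stood at 105.5 ± 7.79 CPM in ctrl and 88.2 ± 5.90 in cold mice and did not pass the test (log2 fold change −0.26, adjusted p = 0.0890).

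Pck1 encodes the enzyme that makes phosphoenolpyruvate for glyceroneogenesis (chromosome 2, 173153048 to 173159273, plus strand). Its level was 1445 CPM in ctrl mouse 2, 1203 in ctrl mouse 9 and 1751 in ctrl mouse 14. The cold mice had 917.0, 785.0 and 821.6 CPM, so that every cold mouse lay below every ctrl mouse and the ctrl mice were the more spread. Pck1 fell by 0.80 ± 0.17 on the log2 scale, and was 1.74-fold lower (adjusted p = 0.00966). The call was lost without cold mouse 11 (adjusted p = 0.0639) and without cold mouse 15 (adjusted p = 0.1005), at log2 fold changes of −0.75 and −0.78. Pck2, the gene of the mitochondrial enzyme, had 56 reads in all and was not tested.

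The largest part of the Pck1 reads lay on the coding transcript Pck1-201, and most of the rest on Pck1-202, which keeps the last intron and is annotated as non-coding. The intron is printed because Pck1-202 keeps it and Pck1-201 does not. Capitals mark its 103 bases, and lower case marks the exon ends on each side.
Pck1 last intron, chr2:173158089-173158191, plus strand, kept in the last of the 9 exons of Pck1-202: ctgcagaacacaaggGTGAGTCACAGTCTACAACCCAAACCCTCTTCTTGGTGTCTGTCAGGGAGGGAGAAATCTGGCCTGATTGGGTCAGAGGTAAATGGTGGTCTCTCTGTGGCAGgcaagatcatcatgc

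In the frame of Pck1-201 these bases hold no stop codon, but their number is not a multiple of 3, and the shifted frame meets its first stop at base 218 beyond the intron. Pck1-201 fell from 919.9 ± 161.3 to 538.6 ± 49.0 CPM (log2 fold change −0.77, adjusted p = 0.000832; 0.158 in the 4 libraries left without the extremes of muscle transcripts, described at the end). Pck1-202 fell from 573.9 ± 119.9 to 313.6 ± 20.9 CPM (−0.87, adjusted p = 0.00588; 0.0990 without cold mouse 15). The forms fell side by side. Reads counted on Pck1-202 made up 40.1%, 36.4% and 38.4% of the pair in ctrl mice. In cold mice they made up 35.8%, 36.6% and 38.1%, and the groups overlapped (exact two-sided permutation p = 0.3). The intron lies 1080 bases from the 3′ end of Pck1-202. How a read that ends before it was assigned is not given in the sources used here. Usage of the Pck1 transcripts was not called (Simes adjusted p = 1.00). The 2-exon form Pck1-204 fell from 14.2 ± 4.36 to 7.10 ± 0.162 CPM (log2 fold change −1.02, adjusted p = 0.0109), a call that was lost without ctrl mouse 14 (adjusted p = 0.125) and with DESeq2 (0.281), and Pck1-203 had 41 reads in all and was not tested.

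Gpd1, which interconverts dihydroxyacetone phosphate and glycerol-3-phosphate in the cytosol (chromosome 15, 99717515 to 99725005, plus strand), was by far the most abundant of the 6 genes. Ctrl mice had 6039, 5978 and 5987 CPM, and cold mice 5966, 6073 and 5494 CPM. The groups overlapped, and only cold mouse 15 stood apart from the other 5. The log2 fold change was −0.04 ± 0.04 (SE; adjusted p = 0.718), and over 16 alternative settings it stayed between −0.09 and 0.01. Gpd1-201 held 99.4 ± 0.120% of the gene's reads in ctrl and 99.3 ± 0.0264% in cold mice. The shorter coding form Gpd1-203 stood at 29.4 ± 6.17 and 34.1 ± 1.74 CPM and the retained-intron form Gpd1-202 at 6.29 ± 1.71 and 7.47 ± 0.938 CPM, and neither passed the test. Over 230 bases Gpd1 lies opposite the antisense gene Gm16537, and since the use of strand is not given, these reads cannot be told apart there. Only 16 reads were counted on Gm16537, against 68927 on Gpd1.

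Gpd1l encodes a protein related to Gpd1 (chromosome 9, 114899341 to 114933987, minus strand) and was scarce. It had 25, 17 and 37 reads in ctrl mice and 29, 32 and 19 in cold mice, or 14.5, 8.68 and 17.2 CPM and 14.0, 16.03 and 11.1 CPM. The groups overlapped fully. Its log2 fold change of 0.03 ± 0.31 (adjusted p = 0.953) has an SE that leaves room for a change of either sign at this depth. Of its 159 reads, 155 lay on Gpd1l-204.

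Gpd2, which oxidises glycerol-3-phosphate at the inner mitochondrial membrane (chromosome 2, 57237635 to 57370719, plus strand), fell. Its levels in ctrl mice 2, 9 and 14 were 742.9, 696.1 and 778.0 CPM. In cold mice 4, 11 and 15 they were 579.3, 591.6 and 497.3 CPM. No cold mouse reached the lowest ctrl mouse. Gpd2 fell by 0.41 ± 0.09 on the log2 scale and was 1.33-fold lower (adjusted p = 0.000164), and the call held under all 16 alternative settings.

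Gpd2 transcripts differ in their first exon and in 1 coding exon of 54 bases. Gpd2-204 and Gpd2-207 begin at an upstream first exon, and Gpd2-201 and Gpd2-202 at a downstream one. Gpd2-202 alone has the exon of 54 bases, which adds 18 codons and lengthens the coding sequence from 2181 to 2235 bases. It is printed as the one segment by which the annotated Gpd2 proteins of these transcripts differ, with capitals for the exon.
Gpd2 exon of 54 bases, chr2:57361786-57361839, plus strand, exon 14 of 18 in Gpd2-202: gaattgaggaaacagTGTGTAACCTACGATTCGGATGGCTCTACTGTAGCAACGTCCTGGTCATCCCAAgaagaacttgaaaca

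Of the 4 Gpd2 transcripts, 3 fell, where 8.22% of all tested transcripts did. Gpd2-201 fell from 267.0 ± 21.5 to 188.9 ± 20.2 CPM (log2 fold change −0.50, adjusted p = 0.000126). Gpd2-202 fell from 293.3 ± 7.85 to 218.6 ± 14.2 CPM (−0.42, adjusted p = 0.000370). Gpd2-207 fell from 194.0 ± 13.7 to 157.4 ± 16.4 CPM (−0.30, adjusted p = 0.0318). This call was lost in 11 of 16 alternative settings, among them those without ctrl mouse 2 or 14 (adjusted p = 0.107 and 0.149) and without cold mouse 4 or 15 (0.0752 and 0.191). Gpd2-204, a non-coding form at 7.99 ± 0.698 and 4.93 ± 1.92 CPM, did not pass the test (adjusted p = 0.201).

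Reads on the forms with the upstream first exon were 27.3%, 26.0% and 26.3% of all Gpd2 reads in ctrl mice 2, 9 and 14. In cold mice 4, 11 and 15 they were 28.5%, 28.8% and 28.1%. The cold mice lay above the ctrl mice by 1.98 percentage points on average (exact two-sided permutation p = 0.1, Benjamini-Hochberg p = 0.4). On flow cell 1 alone the groups overlapped (exact two-sided permutation p = 0.2), and on flow cell 2 alone they were separated. Reads counted on Gpd2-202, the form with the exon of 54 bases, were 38.9 ± 1.13% of coding reads in ctrl and 38.8 ± 1.16% in cold mice. These groups overlapped (exact two-sided permutation p = 0.8). That exon lies 3659 bases from the 3′ end of Gpd2-202, and the first exons lie further from it. How a read that ends before them was assigned is not given in the sources used here. Gpd2 usage was not called (Simes adjusted p = 1.00). Over 276 bases Gpd2 lies opposite an antisense gene, A930012O16Rik; 23 reads were counted on the antisense gene and 7554 on Gpd2.

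**Figure D3:**
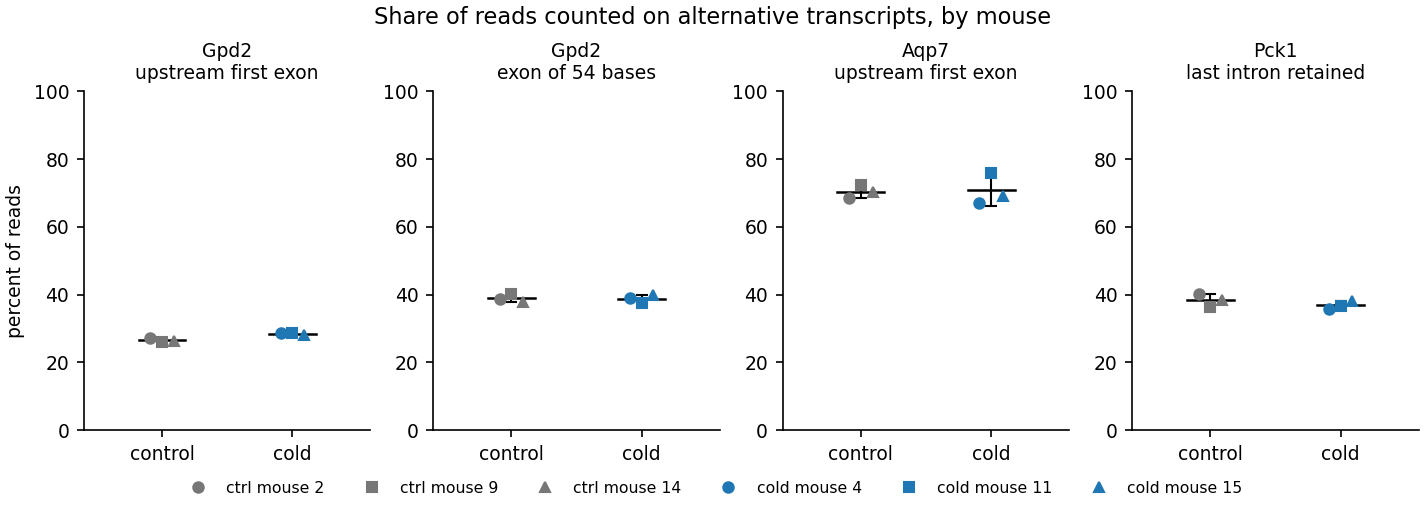
Percent of reads (vertical axes, 0 to 100) on the forms of Gpd2, Aqp7 and Pck1 named above each panel, in the 3 control and 3 cold mice; points are mice, bars group means, error bars the SD. Only the share of the upstream first exon of Gpd2 was separated between the groups, by 1.98 percentage points in the means. On flow cell 1 alone it overlapped.

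Per base of transcript, the order of the genes differed between the groups in the place of Gk. The method reads long molecules, so a longer transcript need not give more reads. Whether division by length suits these counts was not tested. On the scale of CPM per kb of transcript, ctrl levels were 2105 ± 11.4 for Gpd1, 549.9 ± 103 for Pck1, 130.3 ± 7.24 for Gpd2, 47.8 ± 2.50 for Aqp7, 46.3 ± 14.6 for Gk and 3.10 ± 1.01 for Gpd1l. On this scale Aqp7 and Gk did not differ in ctrl mice beyond their spread. In CPM without division by length, Gk was above Aqp7 in each ctrl mouse. Ctrl mice 2, 9 and 14 had 252.8, 130.1 and 207.1 CPM for Gk and 113.4, 108.2 and 120.05 for Aqp7. In cold mice the levels were 2049.6 ± 108 for Gpd1, 315.4 ± 25.5 for Pck1, 142.8 ± 11.6 for Gk, 98.0 ± 9.04 for Gpd2, 68.3 ± 7.07 for Aqp7 and 3.16 ± 0.576 for Gpd1l. On this scale the mean of Gk thus stood above that of Gpd2 in cold and below it in ctrl mice. In CPM without division by length, Gk was above Gpd2 in cold mice 11 and 15 but not in cold mouse 4. That mouse had 550.3 CPM for Gk and 579.3 for Gpd2.

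Ratios of reads within a library do not depend on its normalization. There were 5.72, 9.25 and 8.46 Pck1 reads per Gk read in ctrl mice 2, 9 and 14. In cold mice 4, 11 and 15 there were 1.67, 1.24 and 1.29. Reads of the gene of glyceroneogenesis and of the kinase gene were thus nearer to parity in every cold mouse than in any ctrl mouse. For the shuttle enzymes, Gpd1 reads per Gpd2 read were 8.13, 8.59 and 7.70 in ctrl mice and 10.3, 10.3 and 11.0 in cold mice, again without overlap. Both comparisons have an exact two-sided permutation p of 0.1, the smallest that 3 against 3 can give.

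The promoters of Gk and Pck1, the genes with the largest change in either direction, were read from RefSeq (build GRCm38.p6), which matched 5 of the 6 genes in the table used. They are shown up to the first exon in either annotation, for Gk with the first base of that exon. For Pck1 the RefSeq start, from which its positions are counted, is 173153073 and lies downstream of the GENCODE one. Both promoters are printed 5′ to 3′, and capitals mark a form of the cAMP response element or its core.
Gk promoter, chrX:85776819-85777069, minus strand: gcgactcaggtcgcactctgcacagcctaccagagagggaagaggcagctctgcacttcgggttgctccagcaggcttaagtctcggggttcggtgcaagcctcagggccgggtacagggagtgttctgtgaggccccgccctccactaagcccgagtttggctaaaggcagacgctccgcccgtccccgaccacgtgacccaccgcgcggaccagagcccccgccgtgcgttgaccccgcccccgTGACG
Pck1 promoter, chr2:173152823-173153047, plus strand: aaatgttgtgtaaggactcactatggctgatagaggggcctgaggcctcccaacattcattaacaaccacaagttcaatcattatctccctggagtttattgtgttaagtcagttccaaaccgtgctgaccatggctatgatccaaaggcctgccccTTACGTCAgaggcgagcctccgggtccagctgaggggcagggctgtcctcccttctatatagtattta

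The motifs TGACGTCA and TTACGTCA (forms of the cAMP response element), TGACG (its core), AGGTCA (a nuclear receptor element) and a direct repeat of AGGTCA with a spacer of 1 base were searched on both strands from 250 bases before to 50 after each start. The Pck1 promoter held TTACGTCA, whose first base lies 93 bases before the RefSeq start, and with it an overlapping TGACG on the other strand. In the Gk promoter there was 1 match, TGACG, which begins 4 bases before the start and runs into the first exon. Aqp7 held AGGTCA on the other strand, and the promoters of Gpd1l and Gpd2 held none of the 5. Of 32817 promoter windows of the same length, 1.79% held TGACGTCA, 0.497% TTACGTCA, 20.8% TGACG, 16.3% AGGTCA and 0.0396% the direct repeat. A match describes letters and not a bound site.

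Genes around the 6 were followed in 8 lists, whose counts stand beside the 10% of all tested genes that rose and the 10% that fell, and beside a median log2 fold change of 0.00 over all tested genes. Of 13 tested genes of glycerolipid synthesis, 7 rose and 1 fell, with a median of 0.35. Not all of their enzymes act on glycerol-3-phosphate itself. The first acyl group is added to glycerol-3-phosphate by acyltransferases of which Gpat3 rose from 6.98 ± 0.558 to 17.3 ± 2.28 CPM (log2 fold change 1.29, adjusted p = 0.000330) and the mitochondrial form Gpam from 227.0 ± 27.4 to 406.0 ± 15.3 CPM (0.84, adjusted p = 1.40e-08). Gpat4, also of this step, did not pass the test (adjusted p = 0.737), at 185.5 ± 45.1 CPM in ctrl and 198.9 ± 3.73 in cold mice. Dgat1, which completes triglyceride, rose by 0.68 and Agpat5, an acyltransferase of the next step, by 0.56. The most abundant gene of the list, Agpat2, fell from 2985 ± 89.8 to 2305 ± 106 CPM.

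In the lipolysis list, 4 of 11 tested genes rose and 1 fell, with a median of 0.05. The list holds regulators and partners of lipases beside the lipases. Lpl, the lipase that frees fatty acids from circulating triglyceride, rose from 2858 ± 636 to 8777 ± 367 CPM (log2 fold change 1.62, adjusted p = 0.00598), and Gpihbp1, its anchor on capillary endothelium, rose by 0.61. Mgll, which frees glycerol from monoglyceride in the last step, rose by 0.55, and the lysosomal lipase gene Lipa by 0.35. Lipe, hormone-sensitive lipase, fell by 0.29 on the log2 scale (adjusted p = 0.00756), a call that was lost with DESeq2 (0.0776), with the muscle covariate (0.0628) and without ctrl mouse 14 (0.0800). Pnpla2, which starts the breakdown of stored triglyceride, stood at 1458 ± 110 and 1351 ± 143 CPM and did not pass the test.

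In the list that supplies carbon to Pck1, 2 of 7 tested genes rose and 1 fell (median 0.12). Got1, the cytosolic aspartate aminotransferase, rose from 32.8 ± 3.98 to 145.5 ± 13.4 CPM (log2 fold change 2.15, adjusted p = 2.57e-14). Mdh1, the cytosolic malate dehydrogenase, rose by 0.24. Pcx, which makes oxaloacetate from pyruvate, fell from 159.0 ± 25.9 to 97.1 ± 14.2 CPM (−0.71, adjusted p = 0.000168), in the same direction as Pck1. Genes of the malate-aspartate shuttle, the other route that carries electrons of cytosolic NADH into mitochondria, and of lactate dehydrogenase rose in 4 of 8 cases and fell in none, with a median of 0.23. Beside Got1 and Mdh1, which both lists hold, these were Slc25a12 (1.07) and Ldhb (0.53). Slc25a12 had only 68 reads in all, and its call was lost in 9 of the 14 alternative settings that tested it.

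Of 10 tested genes of triose phosphate and lower glycolysis, 3 rose and 3 fell (median 0.14). Eno1, Gapdh and Aldoa fell by 0.54, 0.31 and 0.29 on the log2 scale, and Pgk1 rose by 0.33. Tpi1, which makes dihydroxyacetone phosphate and glyceraldehyde phosphate interchangeable and so borders on Gpd1, rose from 436.5 ± 41.0 to 525.0 ± 18.8 CPM (adjusted p = 0.0138; 0.168 with the muscle covariate). Among 15 transcription factors and coactivators known to act on Gk, Pck1 or Aqp7, 3 rose and 1 fell (median 0.03). Ppargc1a, a coactivator induced by cold, rose from 25.6 ± 3.97 to 129.9 ± 6.02 CPM (2.33, adjusted p = 1.19e-14), Foxo1 rose by 0.66 and Esrra by 0.33, while Cebpa fell by 0.32. Ppargc1a alone of the 3 was called with DESeq2 and on flow cell 2, where Foxo1 had adjusted p-values of 0.0990 and 0.123 and Esrra of 0.145 and 0.738, the last at a log2 fold change of 0.10. Pparg, the nuclear receptor of fat cells, stood at 166.7 ± 21.3 and 161.2 ± 10.7 CPM and did not pass the test, and neither did Ppara or Creb1.

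**Figure D4:**
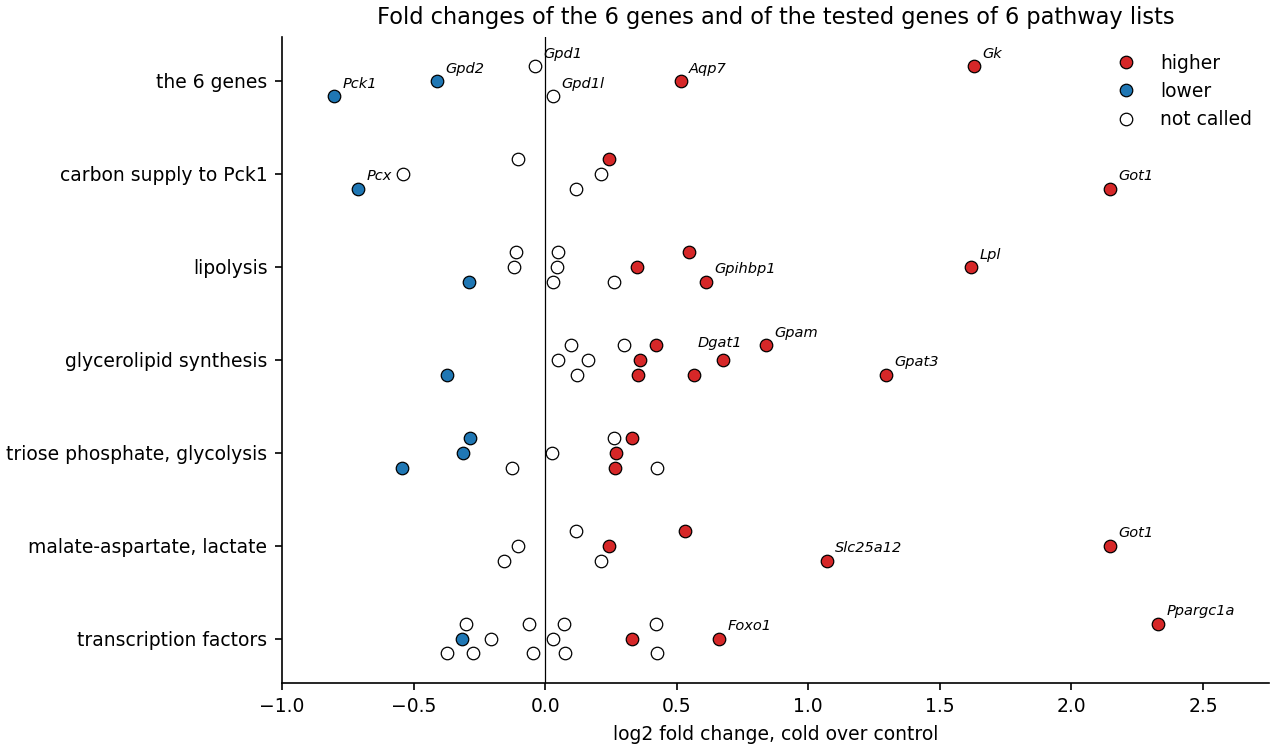
Log2 fold change, cold over control (horizontal axis), of the 6 genes and of the tested genes of 6 lists; each point is a gene, red where it rose, blue where it fell and white where it was not called. Points of glycerolipid synthesis lie mostly to the right, with 7 higher and 1 lower, while those of triose phosphate and glycolysis fall on both sides, with 3 each.

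Leaving out 1 mouse ended the call of Slc25a12 (without ctrl mouse 2, 9 or 14 or cold mouse 11 or 15), Esrra (without cold mouse 4 or 11 or ctrl mouse 9 or 14), Lipa (without cold mouse 4 or ctrl mouse 9 or 14), Mdh1 and Tpi1 (each without ctrl mouse 2 or cold mouse 4), Lipe (without ctrl mouse 14), Cebpa (without cold mouse 4 or ctrl mouse 14), Eno1 (without ctrl mouse 9) and Aldoa (without cold mouse 4), at adjusted p-values from 0.0518 to 0.191. Counts of the lists moved too: without ctrl mouse 2 the malate-aspartate list had 2 genes higher and carbon supply 1 higher and 2 lower, without cold mouse 4 carbon supply had 1 higher, lipolysis had 2 lower without ctrl mouse 9 and 0 without ctrl mouse 14, and the transcription factors had 0 lower without cold mouse 4 or ctrl mouse 14.

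Muscle transcripts were highest in cold mouse 15 and lowest in ctrl mouse 2. Without these 2 libraries, a setting chosen after seeing the marker levels, Gk rose by 1.81 (adjusted p = 0.0239), Aqp7 rose by 0.60 (adjusted p = 0.00122) and Gpd2 fell by 0.33 on the log2 scale (adjusted p = 0.0138), whereas the Pck1 value of −0.79 was no longer called (adjusted p = 0.160). In these 4 libraries Lpl had a log2 fold change of 1.65 but no call (adjusted p = 0.107), and Agpat5 (0.0647), Lipa (0.0507), Lipe (0.103), Mdh1 (0.0533), Slc25a12 (0.314), Tpi1 (0.175) and Cebpa (0.0521) were not called either. Glycerolipid synthesis then had 5 genes higher and 1 lower, lipolysis 3 and 0, carbon supply 1 and 1, the malate-aspartate list 2 and 0, glycolysis 2 and 3, and transcription factors 3 and 0. Markers of kidney and liver, where Pck1 and Gk are also abundant, were nearly absent: Ttr, Slc34a1, Umod and Lrp2 had no read, and Alb and Apoa1 had 1 read each. Endothelial markers summed to 344.8 to 354.1 CPM in ctrl and 388.7 to 411.1 in cold mice, with 1 of 9 (Kdr) higher, and macrophage markers to 62.8 to 93.9 and 95.2 to 128.1 CPM, with 0 of 5 tested called. Of 3 tested white adipocyte markers, Retn and Nnat rose and Lep did not pass the test; the list summed to 60.2 to 97.5 and 114.7 to 141.6 CPM. The part of these cell types in the results was not tested.

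**Figure D5:**
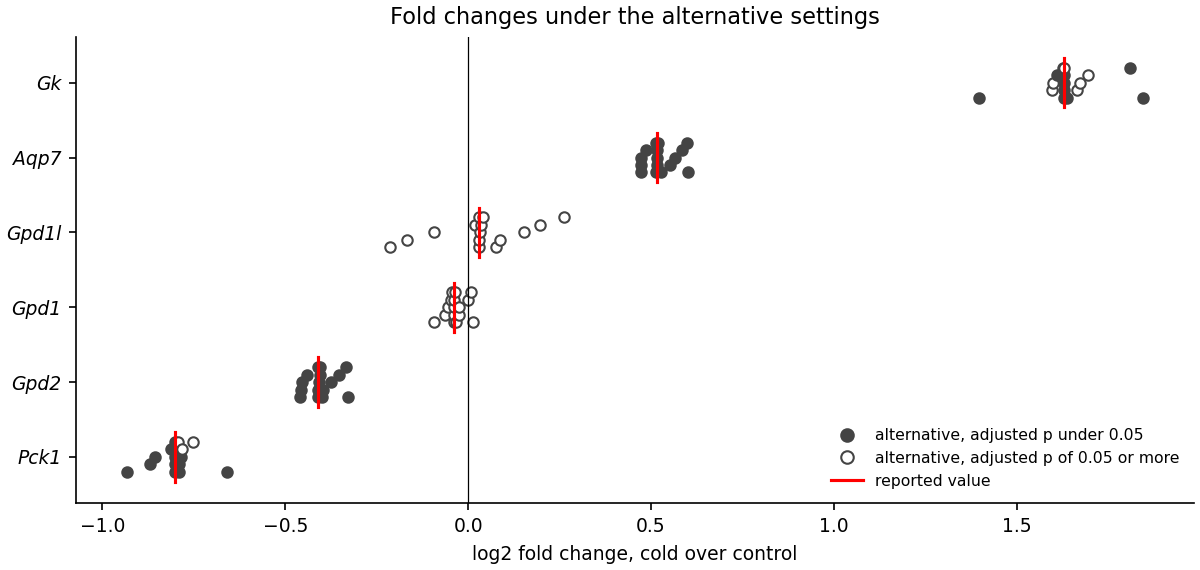
Log2 fold change of each of the 6 genes (horizontal axis) as reported (red bar) and under the alternative settings (points), filled where the adjusted p was under 0.05. No called gene changed its direction; open points of Gk and Pck1 are the settings in which the call was lost.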

How the data were processed

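Deposited tables hold whole-number read counts per transcript, with no normalization; reads were mapped by the authors with minimap2 to GRCm38, per the submitters' processing notes. Not given in the sources used here are the minimap2 version, annotation release, strand use, read filters and handling of reads that fit several transcripts. The labels' extraction text names another fat depot at homogenisation, whereas all tissue fields name brown fat.

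Identifiers were matched to GENCODE M21: 172 of 59543 transcripts, with 0.0836% of reads, did not match and were left out. Both flow cells of a mouse were added up, per transcript and per gene. Genes and transcripts were tested in R 4.3.3 with edgeR 4.0.16 (filterByExpr, TMM, robust glmQLFit, glmQLFTest) over all 6 libraries, with Benjamini-Hochberg adjustment over everything tested and calls under 0.05. The SE of a log2 fold change comes from log2 CPM per mouse (prior count 2). Usage was tested with diffSpliceDGE, and shares with exact two-sided permutation tests. DESeq2 1.42.0, other filters and size factors, single flow cells, a muscle covariate and leaving out each mouse served as alternatives. Scripts ran in Python 3.11.15 with pandas 2.3.3, numpy 2.4.6 and matplotlib 3.10.9; shared sequence was found with minimap2 2.31.

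The 6 genes, the 8 pathway lists and the 6 marker lists were chosen with earlier results of these data known. Named were all transcripts of the 6 genes with at least 10 reads, up to 4 called genes per pathway list by size of change (2 where none was called), the brown adipocyte markers, and the 3 genes most like each of the 6. Agpat2, Gpat4, Tpi1, Pnpla2, Pparg, Ppara, Creb1 and Lipe were named outside this rule after their values were seen. Also outside it were pathway genes not tested or without a read, such as Pck2 and Gk5. Genes of the other marker lists, such as Kdr, Retn, Nnat and Lep, were named outside it too.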

Additional observations from a re-analysis of the deposited data

How the results depend on the processing

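Aqp7 and Gpd2 kept their direction and their call under all 16 alternatives, and Gpd1 and Gpd1l were called under none. The Gk call was lost without a filter on low counts (log2 fold change 1.63, adjusted p = 0.0534) and with the muscle covariate (1.67), and leaving out single mice gave values from 1.40 to 1.85. For Pck1, single mice left out gave −0.93 to −0.66, and the 4 libraries without the extremes of muscle gave −0.79. The call of Gk-202 was lost in 3 alternatives, of Aqp7-202 in 5, of Pck1-202 and Pck1-204 in 2 each, and of Aqp7-201 and Pck1-201 in 1 each, with the same direction throughout. Agpat5, Lipa, Lipe, Foxo1, Esrra, Cebpa, Aldoa, Tpi1 and Slc25a12 were not called with DESeq2, nor Agpat5, Eno1, Esrra, Foxo1, Lipa, Mdh1 and Tpi1 on flow cell 2, Cebpa and Lipa on flow cell 1, or Agpat5, Lipe, Mdh1, Slc25a12 and Tpi1 with the muscle covariate. Usage of the 5 genes tested for it was never called. Over all genes, 869 rose and 870 fell; DESeq2 gave 463 and 346, flow cell 2 alone 457 and 432, the muscle covariate 552 lower and the 4 libraries 559 lower. Where a call was lost, the cause was not tested. No paired analysis was possible because the mouse numbers of the groups differ. Depth limits Gpd1l, the rarer transcripts and shares of Gk in ctrl mice, and groups of 3 were not checked for outliers.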

Other observations

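Genes whose log2 CPM followed each of the 6 most closely over the 6 libraries were sought among 3171 genes with a mean of at least 30 CPM. The points share 2 groups of mice, so genes that differ between the groups correlate highly by that alone, and the values are a description. Closest to Gk were Cluh (Pearson r = 0.998), Tbc1d20 (0.997) and Slc12a2 (0.997). Slc12a2, a cotransporter of sodium, potassium and chloride, stood at 22.6 CPM in ctrl and 89.6 in cold mice, and Cluh, which binds mRNAs of mitochondrial proteins, at 235.4 and 334.6 CPM. Aqp7 was followed by Ngly1 (0.997), Sec31a (0.995) and Cyp2u1 (0.993). For Gpd2 they were Ndufs6 (0.996), Tbca (0.996) and Pdcd4 (0.991), and for Pck1 Hint3 (0.999), Hmgb1 (0.989) and Hsd17b10 (0.983). Gpd1, which did not pass the test, was nearest to Mrpl14 (0.987), Ndufaf2 (0.980) and Cavin2 (0.972). Gpd1l was nearest to Wwp1 (0.974), Prex2 (0.966) and Acadvl (0.957).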
